A study of Mus musculus with 12 samples.

Results

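The 4 arrays described here profiled control mouse B cells at day 1 and at day 3 of a culture that provides T follicular helper-like signals, with 2 arrays at each day. They were 4 of the 12 arrays of the study, and were taken as every array whose title names the control group. The remaining 8 arrays carry the labels Jmjd2a depleted and Jmjd2c depleted (2 arrays per label and day). Jmjd2a and Jmjd2c, also called Kdm4a and Kdm4c, are demethylases of lysine 9 of histone H3.

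All groups were B220+ B cells purified with magnetic beads from the spleen of C57BL/6 mice carrying the transgene Tg(IghelMD4)4Ccg, which encodes a B cell receptor of IgM and IgD class that recognises hen egg lysozyme. The cells were stimulated with anti-CD40, IL-21 and HEL for 1 day or 3 days. Control cells received a control RNA, named sicontrol in the treatment notes and shcontrol virus in the source names, so the labels differ on how it was delivered. Most cells of this transgene share 1 receptor, which limits the model to a single antigen specificity. Titles call the replicates biological, but no label names separate animals or cultures. The p-values below therefore measure the spread between arrays, which may be technical. Age and sex of the animals are not given in the sources used here, and cells of day 0, named in the design, were not analysed here.

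A B cell that meets antigen with CD40 ligation and IL-21 enlarges, divides and can become an antibody-secreting plasmablast. In that change Blimp-1 (Prdm1), Irf4 and Xbp1 rise and set up secretion, while Pax5, Bcl6 and Bach2, which hold the B cell and germinal centre state, are turned down. Division runs in phases, with replication genes expressed around the start of S phase and mitotic genes peaking in G2 and M.

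Values are the deposited log2 values, so 1 unit is a doubling, and a difference is day 3 minus day 1 with its standard error from limma. The 4 control arrays had medians between 5.2 and 5.26. Control day 3 replicate 2 stood apart from the rest: its values spanned an interquartile range of 3.08, where the remaining 11 arrays had 3.38 to 3.63, and its hybridisation controls averaged 11.58, where the rest had 10.6 to 11.09. It correlated with day 3 replicate 1 at r = 0.9887 across probe sets, which are not independent, while the other replicate pairs correlated at 0.9959 to 0.9978. The replicate SD, as root mean square over probe sets, was 0.259 in the day 3 controls and 0.115 to 0.157 in the other 5 groups. The shared estimate of spread therefore understates theirs, and results are also given without each array. Leaving out 1 control array leaves 1 in its group, which then adds nothing to the estimate of spread. Without a day 3 array the understatement is larger, so a pass there is no check against it. Both day 3 control descriptions carry the same replicate name, whereas the titles give replicate 1 and replicate 2.

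The arrays labelled as depleted did not line up with the controls by day. Those of day 3 correlated with the mean of the day 1 controls at 0.995 to 0.9967, and those of day 1 at 0.9865 to 0.9905. The day 3 controls correlated with it at 0.9857 and 0.976. The direction of every difference below rests on the titles.

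B cell markers were checked first. Ms4a1, which encodes CD20, lay at 11.13 and 11.1 at day 1 and at 11.59 and 11.43 at day 3. Cd79b, a signalling chain of the B cell receptor, lay at 11.16 and 11.15, then 12.07 and 12.05. Both lay far above the array medians on all 4 control arrays. The invariant chain Cd74 was at 11.7 and 11.63 at day 1 and 11.73 and 11.81 at day 3.

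Of 45037 probe sets tested, 3809 (8.46%) were higher and 6932 (15.4%) were lower at day 3 in the controls (limma, adjusted p under 0.05). Taking the brightest single-gene probe set as the measure of each of 18193 genes, 2046 genes (11.2%) rose and 3121 (17.2%) fell, or 28.4% in all. These shares are the background for every count of list members below. At least 2-fold changes among called genes numbered 373 up and 291 down. The values of the 5167 called genes did not overlap between the days in any case, while 61.8% of all genes also did not overlap. Separate days are therefore no further check of a called gene. The calls depended on which arrays entered, and a group left with 1 array added nothing to the estimate of spread. With only the 4 control arrays in the model, 1708 probe sets were higher and 3145 lower. Without day 1 replicate 1 the counts were 1968 and 4098, and without day 1 replicate 2 they were 2294 and 4720. Leaving out day 3 replicate 1 gave 7917 and 10127. Leaving out day 3 replicate 2, the array that stands apart, gave 3861 and 5611, and 8012 of the 10741 calls (74.6%) were shared in direction, or 84.6% of the calls made without it.

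The largest rises included 2 granzymes, genes of lipid handling, calcium-binding proteins and a chemokine. Gzma, a granule protease of cytotoxic lymphocytes, went from 5.83 and 6.36 at day 1 to 10.88 and 10.85 at day 3 (difference 4.77 ± 0.27, limma adjusted p = 3.5e-07). Gzmb, another granzyme, which IL-21 is known to induce in lymphocytes, went from 5.68 and 5.95 to 10.17 and 9.95. Lpl, the lipase that releases fatty acids from lipoproteins, went from 3.99 and 4.61 to 9.04 and 8.51. In all 3 genes both day 3 arrays stood more than 3 log2 units above both day 1 arrays. The fatty-acid carrier Fabp4 rose by 4.01 ± 0.33, the calcium-binding protein S100a4 by 4.2 ± 0.2 and Anxa1, which encodes annexin A1, by 3.5 ± 0.19. Gpr34, a lysophospholipid receptor, rose by 4.28 ± 0.4, Cxcl10, a ligand of CXCR3, by 3.7 ± 0.22, the membrane-curving adaptor Fnbp1l by 3.91 ± 0.14, and 2900026A02Rik by 4.32 ± 0.18. At day 1 Lpl, Fabp4 and Gpr34 lay below the array medians of 5.2 to 5.26. The deposited table gives no detection call, so whether those day 1 values stand above background is unknown, and the size of these 3 differences is not exact. The choice of these 10 genes required separate days and a pass without each day 3 array, so neither is a further check. Without day 1 replicates 1 and 2 the difference of Gzma was 4.51 and 5.03.

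Pcp4, Rgs13 and Maf led the falls. Pcp4, which encodes a small calmodulin-binding protein, went from 8.76 and 8.86 to 4.03 and 4.78 (difference -4.4 ± 0.18, limma adjusted p = 4.3e-08). Rgs13, a brake on G-protein signalling known from germinal centre B cells, went from 8.47 and 8.55 to 5.45 and 4.93. Maf, a transcription factor that IL-21 is known to induce in T cells, went from 8.76 and 8.77 to 5.96 and 5.34. The days were far apart in each, although the day 3 arrays differed from each other by less than 1 log2 unit. Pigr, the receptor that carries polymeric immunoglobulin across epithelia, fell by 3.04 and Serpinb1a, a protease inhibitor, by 2.89. Fcmr, the Fc receptor for IgM, fell by 2.44, the BMP mediator Smad1 by 2.34, and 2010204K13Rik by 2.43. Xrcc5, which encodes the Ku80 DNA repair subunit, fell by 2.77 on its only probe set. Spred2, an inhibitor of Ras signalling, fell by 2.46, and 2 of its 5 probe sets passed the test. The day 3 means of Pcp4, Rgs13, Pigr, Spred2 and Smad1 lay below the array medians, so the size of their falls is likewise not exact. The choice of these 10 genes also required separate days and a pass without each day 3 array. Without day 1 replicates 1 and 2 the difference of Pcp4 was -4.45 and -4.35.

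**Figure D1:**
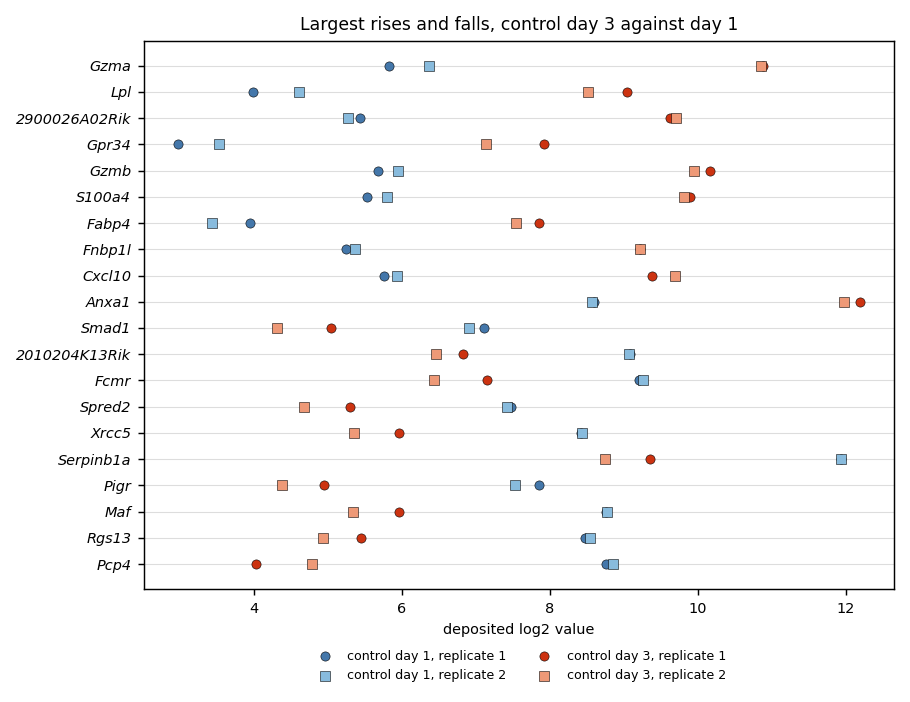
Deposited log2 values of the 10 largest rises and 10 largest falls on the 4 control arrays (circles replicate 1, squares replicate 2, blue day 1, red day 3). Gzma sits at 5.83 and 6.36 at day 1 and above 10.8 at day 3, and Pcp4 falls from above 8.7 to 4.03 and 4.78. Days that do not overlap were required of every gene shown.

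The secretory products of the plasma cell rose while their master regulator did not pass the test. Xbp1, the transcription factor that expands the secretory apparatus, had 11.71 and 11.79 at day 1 and 12.52 and 12.59 at day 3 (0.8 ± 0.05, limma adjusted p = 1.2e-06), and all 4 of its probe sets were higher. Jchain, which joins IgM and IgA into polymers, went from 11.14 and 11.22 to 12.54 and 12.51. Mzb1, an endoplasmic reticulum chaperone for IgM, went from 11.51 and 11.58 to 12.68 and 12.71. For these 3 genes the replicates were close, and the days were separate, as in every called gene. Igha, the IgA heavy chain, rose by 3.04 ± 0.56, from 10.07 and 10.28 to 13.31 and 13.13. The receptor of the transgene is of IgM and IgD class, and which cells made the Igha RNA was not tested. At day 1 the label means of Igha were 12.09 and 12.44. Ighm, the IgM heavy chain, rose by 0.63 ± 0.04 on its brightest probe set, and of its 11 probe sets 7 were higher and 1 lower. Prdm1 lay at 7.52 and 7.42 at day 1 and at 7.81 and 7.34 at day 3, so the days overlapped (0.11 ± 0.16, adjusted p = 0.66). Irf4 had 9.19 and 9.14, then 9.47 and 9.31 (0.23 ± 0.1, adjusted p = 0.13), and under quantile normalization the difference was 0.34 with adjusted p = 0.02. Sdc1, the plasma cell surface proteoglycan CD138, went the other way, from 10.54 and 10.63 to 9.43 and 9.32 (-1.2 ± 0.09, adjusted p = 1.9e-06).

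Among plasma cell products and surface markers as a list, 10 of 19 measured genes rose and 3 fell, with a median of 0.29 against 0.05 over all genes. Besides Mzb1, the members of smallest p were Edem1, which sends misfolded glycoproteins to degradation (0.96), Trp53inp1, a stress-induced nuclear protein (1.54), and Eaf2, an elongation factor partner (0.89). Fkbp11 (-0.61) and Creld2 (-0.34), both of the endoplasmic reticulum, were the other falls. Fkbp11 was at -0.54 with adjusted p = 0.055 without day 1 replicate 2. Creld2 was at -0.34 without day 1 replicate 1 (adjusted p = 0.078) and without day 1 replicate 2 (0.067), and at -0.25 without day 3 replicate 2 (0.055). Of 9 plasma cell transcription factors, 3 rose and 1 fell: Xbp1, Zbp1 (0.36) and Ell2 (0.41), an elongation factor for secretory immunoglobulin mRNA, rose, and Atf6 (-0.42), a sensor of endoplasmic reticulum stress, fell. Ell2 no longer passed without day 1 replicate 1 (adjusted p = 0.06) or day 1 replicate 2 (0.064). Without either day 3 array 2 of the 9 fell. Of 4 measured immunoglobulin genes 3 rose, namely Igha, Ighm and Iglv1 (0.48), whose 3 probe sets disagree, with 2 higher and 1 lower.

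**Figure D2:**
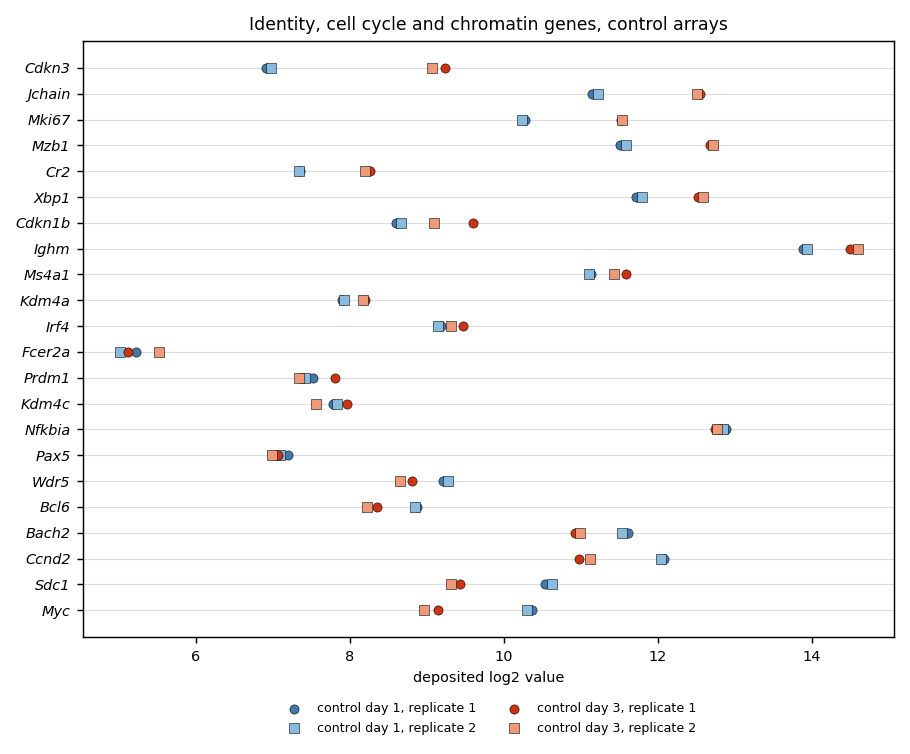
Deposited log2 values of 22 genes of B cell and plasma cell identity, cell cycle and chromatin on the 4 control arrays, ordered by the difference between days. Cdkn3, Jchain and Mki67 lie to the right at day 3, Myc and Sdc1 to the left, and the values of Prdm1, Kdm4c and Fcer2a overlap.

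Genes that hold the B cell state moved in both directions. Bach2, a repressor that delays plasma cell differentiation, fell from 11.61 and 11.53 to 10.93 and 10.99 (-0.61 ± 0.05). Bcl6, the germinal centre repressor, fell from 8.88 and 8.85 to 8.36 and 8.23 (-0.57 ± 0.09). Pax5 lay at 7.2 and 7.09, then 7.07 and 6.99 (-0.12 ± 0.14, adjusted p = 0.59) on its brightest probe set, and of its 2 probe sets 1 was called higher and 0 lower. So 2 of these 3 repressors of the plasma cell state were lower. Cr2, the complement receptor CD21, rose by 0.88 ± 0.19 and Fcer2a, the low-affinity IgE receptor CD23, stood at 5.23 and 5.02, then 5.12 and 5.53, with overlapping days. The rise of Ms4a1 (0.4 ± 0.1, adjusted p = 0.014) did not pass without day 1 replicate 1 (0.071), day 1 replicate 2 (0.077) or day 3 replicate 1 (0.052).

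In the list of mature B cell identity 10 of 30 measured genes rose and 7 fell, with a median of 0.1. These are 33.3% and 23.3%, against 11.2% and 17.2% of all genes. Cd72, an inhibitory co-receptor (0.95), Cd79b (0.9), the adaptor Blnk (0.4) and the homing receptor Ccr7 (1.25) rose. Fcmr, Id3, an inhibitor of E proteins (-1.16), Bach2 and Ets1 (-0.5) fell. The rises numbered 6 without day 1 replicate 1 and 5 without day 1 replicate 2. In the germinal centre and class switch list 10 of 18 genes fell and 1 rose, with a median of -0.47. The falls included Rgs13, the uracil glycosylase Ung that acts in class switching (-1.43), the mismatch repair gene Msh6 (-1.02) and Mef2b (-0.8). The gene that rose was the death receptor Fas (1.52). Of 14 genes of MHC class II presentation 6 rose and 1 fell: the costimulator Cd86 (1.12), the thiol reductase Ifi30 (1.03) and H2-DMa, which loads peptides (0.91), were among those that rose, and H2-Aa (-0.17) fell. Without day 1 replicate 1 only 3 of these rises passed.

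The cell cycle lists separated by phase. All 37 measured mitosis genes rose, with differences from 0.53 to 2.24 and a median of 1.21, against 11.2% of all genes. Ccnb2, which encodes cyclin B2, went from 8.66 and 8.69 to 10.82 and 11.01 (2.24 ± 0.09, limma adjusted p = 4.3e-08). Cenpa, the centromeric histone, went from 9.13 and 9.15 to 11.18 and 11.21. Ube2c, the ubiquitin-conjugating enzyme of the anaphase-promoting complex, went from 10.3 and 10.27 to 12.28 and 12.25. Each replicate pair agreed within 0.2 while the days were about 2 units apart. Mki67, which encodes the proliferation antigen Ki-67, rose by 1.26 ± 0.06. At least 36 of the 37 rises passed without each control array, and 34 passed with only the 4 control arrays.

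Mitotic genes are known to carry a cell cycle homology region (CHR, TTTGAA) near the start. RefSeq promoters of the build GRCm38.p6 were found for 30 of the 37 genes. In the 250 bases before the start, on either strand, 13 of their 32 promoters (40.6%) hold TTTGAA, as do 16% of all 32851 promoters of the table. The promoters of Ccnb2 (chr9:70421555-70421804, minus strand) and Ube2c (chr2:164769679-164769928, plus strand) are shown as the holders of smallest p, with the match in capitals.
Ccnb2: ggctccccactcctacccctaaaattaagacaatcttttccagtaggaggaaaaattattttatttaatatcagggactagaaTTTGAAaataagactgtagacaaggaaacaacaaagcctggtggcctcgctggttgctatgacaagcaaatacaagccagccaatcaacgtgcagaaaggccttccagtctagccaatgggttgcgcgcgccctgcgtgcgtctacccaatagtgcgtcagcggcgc
Ube2c: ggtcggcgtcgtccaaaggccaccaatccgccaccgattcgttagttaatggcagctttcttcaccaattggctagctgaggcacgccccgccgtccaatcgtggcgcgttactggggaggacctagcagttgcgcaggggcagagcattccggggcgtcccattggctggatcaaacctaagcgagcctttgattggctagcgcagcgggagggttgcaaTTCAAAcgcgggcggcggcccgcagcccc
The match begins at position -167 from the start in Ccnb2, and at -29 in Ube2c on the reverse strand. A match is a description of the letters, not of binding.

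Replication genes behaved differently from mitotic ones. In the list of DNA replication at G1/S 22 of 38 genes fell and 5 rose, with a median of -0.3. Cdt1, which loads the replicative helicase, went from 11.07 and 11.07 to 10.03 and 10.05 (-1.03 ± 0.05). The helicase subunits Mcm4 (-0.6) and Mcm2 (-1.18) and Slbp, which binds histone mRNA (-0.53), fell as well. The rises were in nucleotide supply and clamp loading, with Rrm1 (0.35), Tk1 (0.46), Rfc2 (0.33) and Rrm2 (0.21) leading. The rise of Rrm2 had adjusted p = 0.066 without day 1 replicate 2, and 3 rises in all passed without that array. Of 37 promoters found for 31 of these genes, 6 (16.2%) hold an E2F site, TTTCCCGC or TTTGGCGC on either strand, against 1.3% of all promoters.

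Some regulators of entry into the cycle were lower. The median of the Myc-Max network and D cyclins list was 0.04, against 0.05 over all genes. Its members Mycl and Mlxipl lay below the array medians on all 4 control arrays, so whether they stand above background is unknown. Myc, the growth transcription factor, went from 10.36 and 10.3 to 9.15 and 8.97 (-1.27 ± 0.1), and Ccnd2, which encodes cyclin D2, from 12.08 and 12.04 to 10.97 and 11.12 (-1.02 ± 0.06). The cyclin D partners Cdk6 (-1.02) and Cdk4 (-0.5) fell too. In both Myc and Ccnd2 both day 3 values lay below both day 1 values, but the days were separate in every called gene. In the list of the Myc-Max network and D cyclins 6 of 16 genes fell and 4 rose, and the rises, Mxd3 (0.93), Rb1 (0.45), Mycl (0.62) and Mlxipl (0.35), numbered 1 without day 1 replicate 1 and 2 without day 1 replicate 2.

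Among genes of quiescence and kinase inhibition 12 of 25 rose and 4 fell, with a median of 0.36. Cdkn3, a phosphatase of Cdk1 and Cdk2 that is itself expressed in mitosis, went from 6.92 and 6.98 to 9.24 and 9.07 (2.21 ± 0.11). Cdkn1b, the inhibitor p27, went from 8.6 and 8.67 to 9.6 and 9.09 (0.71 ± 0.15), and the difference was 0.46 without day 3 replicate 1. Btg1, an antiproliferative factor (0.71), the Myc antagonist Mxd4 (1.93) and Cdkn2a, which encodes p16 and Arf (2.58), rose. Cdkn2a lay at 4.57 and 4.24 at day 1, below the array medians, and at 6.43 and 7.54 at day 3. The size of its rise is therefore not exact. The factors of resting lymphocytes Klf2 (-1.24), Klf3 (-1.04) and Foxo3 (-0.55) and the survival gene Bcl2 (-0.3) fell. The falls numbered 1 without either day 1 array and 1 without day 3 replicate 2. Cdkn3, Cdkn1b and the mitotic genes were thus higher on the same arrays on which Myc and Ccnd2 were lower.

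Genes that build ribosomes fell together. Of 35 ribosome biogenesis genes 34 fell and 1 rose, with a median of -0.84, against 17.2% of all genes lower. Gnl3, which encodes nucleostemin, went from 11.52 and 11.51 to 10.57 and 10.67 (-0.89 ± 0.05). Nop58, a core protein of small nucleolar RNPs, went from 12.12 and 12.14 to 11.13 and 11.11, and its partner Nop56 from 11.79 and 11.9 to 11.03 and 10.87. Nucleolin (Ncl) fell by 0.51. The days were separate in each of these genes, as in every called gene. The gene that rose was Polr1c, a subunit shared by RNA polymerases I and III (0.41). The falls numbered 33 or 34 without each control array and 32 with only the 4 control arrays. Of 32 promoters found for 30 of the genes, 1 (3.12%) holds the Myc-type E box CACGTG, against 6.02% of all promoters. An E2F site is in 3 of them (9.38%), against 1.3% of all promoters.

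Of 19 heat-shock proteins and chaperonins 15 fell and 0 rose, and 14 or 15 fell without each control array. Hspd1, the mitochondrial chaperonin, fell by 0.7, and the cytosolic chaperonin subunits Cct7, Cct8 and Cct2 by 0.44, 0.42 and 0.29. Among 8 genes of polyamine synthesis the spermidine synthase Srm (-1.19), Odc1, which starts the pathway (-0.84), and Azin1 (-0.48) fell, and the catabolic enzyme Sat1 (0.92) rose. Without day 3 replicate 1, 2 polyamine genes and 1 heat-shock gene rose.

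Metabolic lists leaned lower with smaller differences. Of 22 genes of glycolysis and of glucose and lactate transport 9 fell and 0 rose, and 1 rose without either day 3 array. Slc16a1, a lactate transporter, went from 10.92 and 10.93 to 9.48 and 9.48 (-1.45 ± 0.06, adjusted p = 4.4e-08). Hk2, which phosphorylates glucose (-1.08), Pfkp (-0.69) and Ldha, which makes lactate (-0.47), fell too. Cholesterol synthesis and uptake had 13 falls and 2 rises among 22 genes, with Cyp51 (-0.79), Idi1 (-0.52), Sc5d (-0.9) and Insig1 (-0.53) lower and Tm7sf2 (0.77) and Mvd (0.31) higher. The rise of Mvd was lost without either day 1 array (adjusted p = 0.14 and 0.088). In oxidative phosphorylation 11 of 33 genes fell (33.3%, against 17.2% of all genes) and 3 rose (9.09%, against 11.2%), with a median of -0.06. Without either day 1 array 4 of these genes fell, and without day 3 replicate 2 the number was 7, while the rises numbered 0, 1, 2 and 5 as each array was left out.

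In lipid handling 14 of 25 genes rose and 5 fell. Besides Lpl and Fabp4, the carrier Fabp5 went from 10.3 and 10.26 to 12.12 and 12.36 (1.96 ± 0.11), and the lipid droplet protein Plin2 from 7.89 and 7.96 to 9.83 and 9.79 (1.89 ± 0.11). Npc2, which exports cholesterol from lysosomes, rose by 0.59. Fasn, the fatty acid synthase (-0.79), Acaca, which makes malonyl-CoA (-0.49), Scd1 (-0.33) and Acsl4 (-0.61) fell.

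The endoplasmic reticulum lists leaned lower while Xbp1 rose. Among 41 genes of entry into and folding in the endoplasmic reticulum 19 fell and 4 rose, with a median of -0.15. Hspa5, the chaperone BiP, went from 13.14 and 13.16 to 12.76 and 12.76 (-0.39 ± 0.04, adjusted p = 2.6e-05). The lectin chaperone Canx (-0.35), Ssr2 of the translocon-associated complex (-0.68) and Hyou1 (-0.61) fell. Sec11c, a catalytic subunit of the signal peptidase, rose by 1.14 and Ero1b, which drives disulfide formation, by 0.72. Of the other rises, Sec62 (0.23) was lost without either day 1 array or day 3 replicate 1 (adjusted p = 0.067 to 0.28), and Pdia4 (0.3) without each of the 4 arrays (0.055 to 0.25). The falls numbered 11 without day 1 replicate 1 and 12 without day 1 replicate 2, and the rises 2 without either of these or day 3 replicate 1. In glycosylation, degradation and transport 18 of 42 genes fell, among them Dad1 (-0.89) and Ddost (-0.58) of the oligosaccharyltransferase, the coat GTPase Sar1a (-0.62) and the cargo receptor Lman1 (-0.59), and Tmed10 (0.48) rose. Without day 3 replicate 1 the rises of that list numbered 3. Of 41 promoters found for 37 of these genes, 4 (9.76%) hold the unfolded protein response element TGACGTGG on either strand, against 0.563% of all promoters.

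The endoplasmic reticulum stress element (ERSE) is the site through which Atf6 and Xbp1 are known to act. Only 32 of the 41 genes had a promoter in the table, fewer than the 80% required, so a share over the list is void. It is shown for Hspa5 (chr2:34771840-34772089, plus strand) and Canx (chr11:50325674-50325923, minus strand), which hold it and fell, with the match in capitals at positions -65 and -145 from the start.
Hspa5: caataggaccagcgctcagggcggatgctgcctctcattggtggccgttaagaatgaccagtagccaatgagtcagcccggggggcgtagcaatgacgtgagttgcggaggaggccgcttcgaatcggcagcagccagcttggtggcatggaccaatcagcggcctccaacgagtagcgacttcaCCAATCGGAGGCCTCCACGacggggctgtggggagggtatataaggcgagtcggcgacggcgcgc
Canx: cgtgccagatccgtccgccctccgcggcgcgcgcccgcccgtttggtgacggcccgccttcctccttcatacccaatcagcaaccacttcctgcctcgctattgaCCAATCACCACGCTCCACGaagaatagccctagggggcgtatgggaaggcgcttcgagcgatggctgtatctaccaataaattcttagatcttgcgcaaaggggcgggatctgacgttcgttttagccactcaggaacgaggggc
Ero1b, which rose by 0.72, also holds the element. So do Pdia6, Hsp90b1 and Calr, which fell, and Dnajc3, which did not pass the test. Of all 32851 promoters 37 (0.113%) hold the element.

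In the list of the Atf4 stress response and amino acid supply 11 of 27 genes fell and 4 rose. Atf4 itself fell by 0.56, the mitochondrial serine enzyme Shmt2 by 1.05, and the amino acid transporters Slc7a5 and Slc1a5 by 0.63 and 1.06. Slc7a11 lay between 3.14 and 3.73 on the 4 control arrays, below the array medians, so whether it stands above background is unknown. It rose by 0.41, and Sesn2, Atf5 and Ddit3 by 0.55, 0.34 and 0.4. Of these rises 1 passed without either day 1 array and 0 with only the 4 control arrays.

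Genes of the signals supplied to the culture moved in both directions. In CD40 and NF-kB 7 of 22 genes fell (31.8%, against 17.2% of all genes) and 3 rose (13.6%, against 11.2%). The share that rose was thus near that of all genes. Ccl22, a chemokine that CD40 induces, went from 5.21 and 5.48 to 9.03 and 8.54 (3.44 ± 0.21), and Ebi3, a cytokine subunit, from 6.13 and 6.35 to 8.28 and 8.41. Traf1 rose by 0.85. The transcription factor subunits Rel (-1.41), Relb (-0.73) and Rela (-0.33) and the inhibitor Nfkbib (-0.89) fell. Among these named members 2 secreted products rose while 3 subunits of the factor fell. Nfkbia went from 12.88 and 12.84 to 12.74 and 12.77 (-0.11 ± 0.03, adjusted p = 0.033), a call lost without each of the 4 arrays (0.051 to 0.22). With only the 4 control arrays 3 falls of the list passed.

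In IL-21 and STAT signalling 11 of 19 genes fell and 3 rose, the rises being Gzmb, Socs2, an inhibitor of cytokine receptors (1.52), and the kinase Pim2 (0.57). Without day 3 replicate 2 the rises numbered 5. Pim2 had adjusted p = 0.069 without day 1 replicate 2, and a difference of 0.37 without day 3 replicate 1. Maf, the shared receptor subunit Il6st (-1.71), the phosphatase Ptpn2 (-0.6) and the feedback inhibitor Socs3 (-0.31) fell. In B cell receptor signalling 4 of 19 genes rose and 4 fell (21.1% each, against 11.2% and 17.2% of all genes), so the falls were near the share of all genes. The kinases Syk (1.36) and Prkcb (0.85), Cd81 (0.68) and Plcg2 (0.35) rose, and Malt1 (-0.98), Nfatc1 (-0.83), Ptpn6 (-0.15) and Grb2 (-0.21) fell. Ptpn6 had adjusted p = 0.06 and 0.077 without day 1 replicates 1 and 2. Grb2, whose 2 probe sets went in opposite directions, had 0.12 without day 1 replicate 2 and 0.063 without day 3 replicate 1. The falls of the list numbered 2 without day 1 replicate 2, and its rises 7 without day 3 replicate 2.

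Immediate early genes, which respond within minutes to receptor signals, had 8 falls and 5 rises among 24. Nr4a1, a reporter of antigen receptor signalling, went from 8.59 and 8.61 to 6.59 and 6.04 (-2.29 ± 0.29, adjusted p = 0.00012). Nr4a3 (-1.67), Egr2 (-1.18) and Ier2 (-1.23) fell as well. The rises, led by Klf6 (0.31), Dusp1 (0.67), Jun (0.58) and Ier3 (0.44), numbered 0 without day 1 replicate 1 and 0 without day 1 replicate 2, whereas 8 falls passed in both cases. Of 26 promoters found for 20 of these genes, 3 (11.5%) hold the cyclic AMP response element TGACGTCA, against 1.55% of all promoters. The E box CACGTG is in 7 of them (26.9%), against 6.02% of all promoters.

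Interferon-induced genes rose more often than they fell, with 14 of 30 higher and 6 lower and a median of 0.39. Gbp2, an interferon-induced GTPase, went from 9.1 and 9.01 to 12.65 and 12.41 (3.47 ± 0.11, adjusted p = 2.5e-08). Its paralogue Gbp3 went from 8.76 and 8.8 to 10.91 and 10.75, and Igtp, another GTPase of this response, rose by 0.76. The falls were led by Usp18, a brake on interferon signalling (-1.21), Oasl1 (-0.98), Oas1a (-0.5) and Irf8 (-0.24). The named GTPases and Cxcl10 were higher while 2 oligoadenylate synthetase family genes were lower. Promoters were found for 25 of the 30 genes, and 13 of these 32 promoters (40.6%) hold the interferon-stimulated response element (ISRE) core on either strand, against 2.98% of all promoters. The promoters of Gbp2 (chr3:142620413-142620662, plus strand) and Gbp3 (chr3:142559794-142560043, plus strand) are shown as the holders of smallest p, with matches in capitals on the reverse strand.
Gbp2: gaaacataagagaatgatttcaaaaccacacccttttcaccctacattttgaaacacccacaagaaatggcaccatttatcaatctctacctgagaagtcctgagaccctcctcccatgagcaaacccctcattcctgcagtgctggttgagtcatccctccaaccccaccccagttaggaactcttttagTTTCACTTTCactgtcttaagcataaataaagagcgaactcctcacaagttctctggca
Gbp3: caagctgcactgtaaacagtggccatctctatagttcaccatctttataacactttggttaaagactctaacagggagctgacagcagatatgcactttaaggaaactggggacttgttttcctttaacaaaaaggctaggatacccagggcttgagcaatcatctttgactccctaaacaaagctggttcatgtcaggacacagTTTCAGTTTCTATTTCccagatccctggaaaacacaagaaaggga
Gbp3 holds 2 overlapping matches. Oas1a, which fell, also holds the element.

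S100, annexin and galectin genes, which act at membranes and in cell motility, mostly rose. Of 21 S100, annexin and galectin genes 15 rose and 2 fell, with a median of 1.47. Besides S100a4 and Anxa1, Anxa2 went from 7.94 and 7.96 to 9.79 and 9.94 (1.91 ± 0.09), and the galectin Lgals1 from 10.6 and 10.61 to 12.28 and 12.34 (1.71 ± 0.09). Lgals9 (-0.83) and Anxa7 (-0.21) fell, and Anxa7 was lost without either day 1 array or day 3 replicate 2 (adjusted p = 0.09 to 0.11). S100a8 and S100a9, which neutrophils express strongly, had differences of 2.84 and 2.7 that did not pass the test (adjusted p = 0.13 and 0.17).

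Of 20 chemokine and homing receptors 12 rose and 3 fell. Cxcr3, which guides cells to inflamed tissue, went from 7.21 and 7.21 to 10.14 and 9.99 (2.86 ± 0.14), and its ligand gene Cxcl10 rose on the same arrays. The integrin Itgal (1.12), the hyaluronan receptor Cd44 (1.08) and Ccr6 (0.68) rose. Gpr183, which positions B cells in the follicle (-1.06), Ccr9 (-1.04) and S1pr3 (-1.79) fell. At least 10 rises and all 3 falls passed without each control array.

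In the Bcl2 family and apoptosis list 5 of 17 genes rose and 1 fell. Bcl2l11, which encodes the death inducer Bim, went from 10.09 and 10.17 to 12.21 and 11.82 (1.88 ± 0.11), and Fas, Casp9 (0.95) and the Bcl2 antagonist Pmaip1 (0.85) rose. The fall was Bcl2, which went from 8.6 and 8.53 to 8.36 and 8.17 and was lost without either day 1 array or day 3 replicate 2 (adjusted p = 0.095 to 0.21). Without day 3 replicate 1, 2 genes fell.

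Among 31 modifiers of histone H3 8 fell and 2 rose, and the falls numbered 4 without day 1 replicate 1 and 5 without day 3 replicate 2. Kdm6b, a demethylase of lysine 27, went from 8.98 and 9.03 to 7.7 and 7.75 (-1.28 ± 0.09). Wdr5 (-0.52), Kmt2d (-0.61) and Dpy30 (-0.29), members of complexes that methylate lysine 4, fell. Ehmt2, a methyltransferase of lysine 9, rose by 0.63. Of the demethylases that the depletion labels name, Kdm4a lay at 7.9 and 7.92, then 8.2 and 8.17 (0.27 ± 0.09, limma adjusted p = 0.041). That call was lost without either day 1 array. Kdm4c lay at 7.78 and 7.84, then 7.96 and 7.56, with overlapping days (-0.05 ± 0.12, adjusted p = 0.81). Its difference was -0.25 without day 3 replicate 1 and 0.16 without day 3 replicate 2. Under the Jmjd2a label the Kdm4a means were 8.02 at day 1 and 8.06 at day 3, and the control means 7.91 and 8.18. Under the Jmjd2c label the Kdm4c means were 8.0 and 7.79, and the control means 7.81 and 7.76. Whether the RNA of either was lower under its label was not tested.

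**Figure D3:**
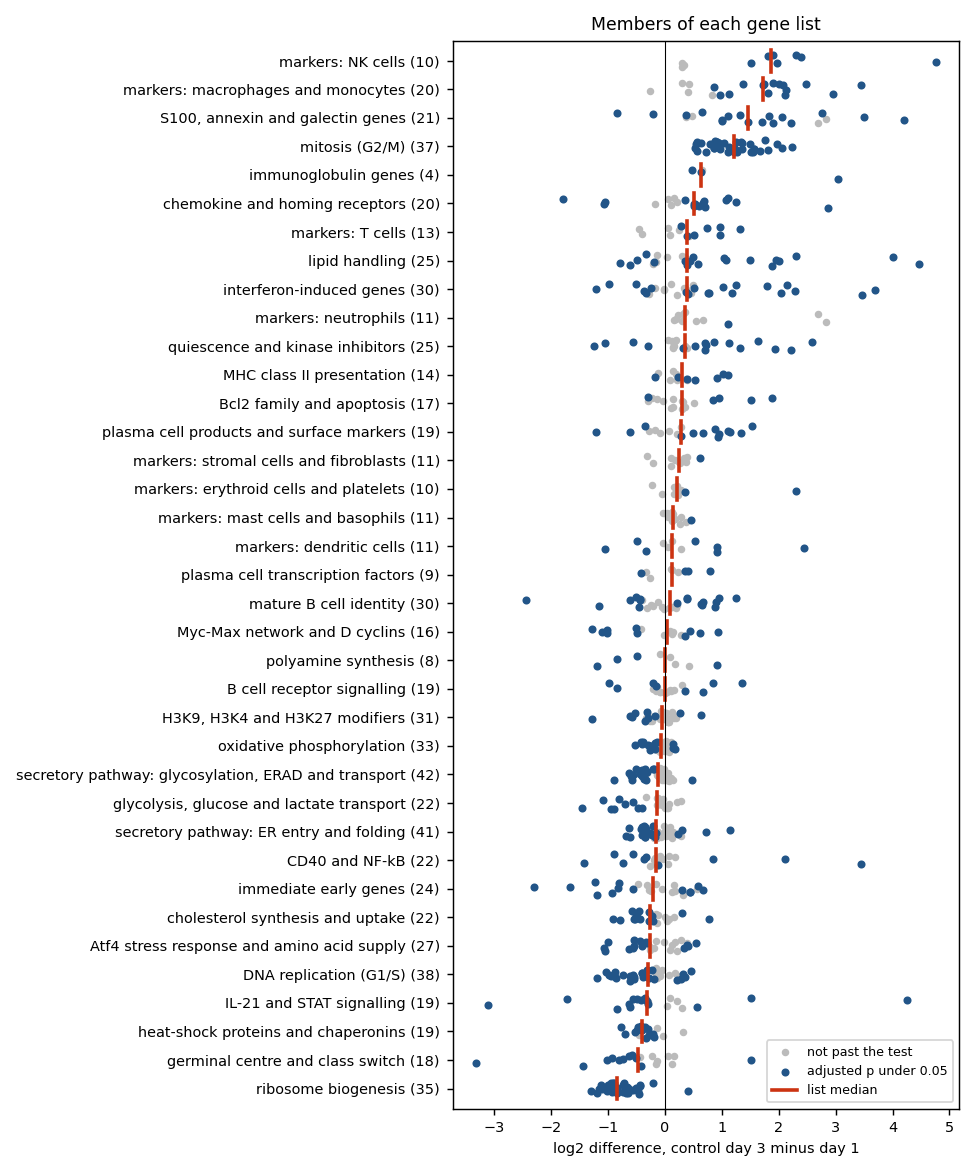
Log2 difference day 3 minus day 1 of every measured member of the 37 gene lists (points, blue past adjusted p 0.05, grey not), with the list median as a red bar and the number of members in brackets. Every mitosis gene lies to the right of 0 and 34 of 35 ribosome biogenesis genes to the left; vertical scatter within a list has no meaning.

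Markers of other cell types moved with the day. Of 20 macrophage and monocyte markers 15 rose and 0 fell, with a median of 1.73, and their mean level went from 5.27 and 5.28 at day 1 to 6.86 and 6.73 at day 3. Vcam1 (3.44), the iron exporter Slc40a1 (2.95), Cd68 (1.72) and Mpeg1 (1.37) had the smallest p. Csf1r, the receptor that defines the lineage, went from 5.72 and 5.7 to 7.36 and 7.55. Cd14 (-0.26) and Cd163 (0.42) did not pass. Of 10 NK cell markers 7 rose and 0 fell, with a mean level of 5.17 and 5.32 at day 1 and 7.04 and 6.99 at day 3. Gzma, Ctsw (2.31), Nkg7 (1.97) and Prf1 (1.81) led, though the 2 probe sets of Prf1 went in opposite directions. The NK receptor Ncr1 (4.02 and 4.08, then 4.18 and 4.53) and the factor Eomes (0.31) did not pass. In bulk RNA, a change in the number of cells of a type and a change in RNA per cell cannot be told apart. The part of these cells in the rises of Gzma, Gzmb, Lpl, Gpr34, S100 and interferon genes was not tested.

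Of 13 T cell markers 7 rose and 0 fell, with Cd2 (0.97), Thy1 (0.97), Il7r (1.33) and Cd3g (0.74) leading, and the rises numbered 3 without day 1 replicate 1 and 4 without day 1 replicate 2. Cd3g had adjusted p = 0.058 without day 1 replicate 1. Cd3e (0.25, adjusted p = 0.21) and Cd8a (0.05, adjusted p = 0.8) did not pass. Of 11 dendritic cell markers 4 rose and 3 fell. The growth factor receptor Flt3 (2.45) and Batf3 (0.91) rose with each array left out, while the calls of Itgax, Zbtb46, Siglech and Bst2 were each lost without at least 1 array (adjusted p up to 0.2), and the rises numbered 2 without day 1 replicate 2. Neutrophil, mast cell and stromal lists had 1 rise each among 11 genes, namely Mmp8 (1.12), Ms4a2 (0.47) and Lum (0.62). The mast cell call was lost without either day 1 array or day 3 replicate 2, and without day 3 replicate 1 the mast cell and stromal rises numbered 3 and 4. Of 10 erythroid and platelet genes 2 rose, Car2 (2.3) and Epb42 (0.35), and 1 passed without each control array.

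**Figure D4:**
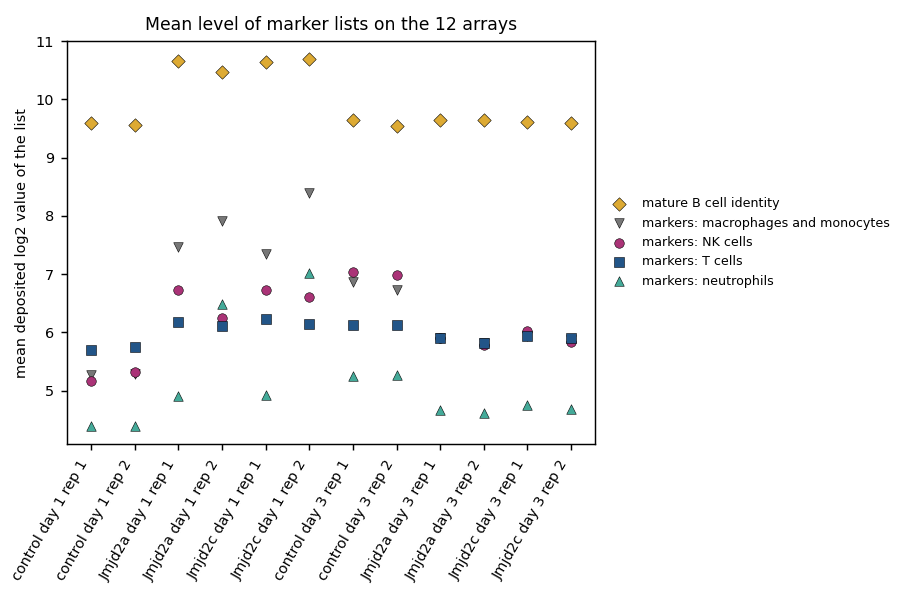
Mean deposited log2 value of 5 gene lists on each of the 12 arrays. The macrophage list lies at 5.27 and 5.28 on the day 1 controls, 6.86 and 6.73 on the day 3 controls, and 7.35 to 8.4 on the day 1 arrays with depletion labels; the B cell list is also higher on those 4 arrays.

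The change between days in the controls was compared with the mean change under both depletion labels, which share no array with it. It differed in 9754 probe sets, being higher in 3659 (8.12%) and lower in 6095 (13.5%). Counted over genes, 2035 (11.2%) were higher and 2914 (16%) lower. Without day 3 replicate 1 of the controls the probe-set counts were 6225 and 9146. The marker lists bear on this comparison, because the day 1 arrays with depletion labels had macrophage means of 7.35 to 8.4 and the day 1 controls 5.27 and 5.28. The part of other cells in the differences was not tested.

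Mitotic genes rose in all 3 groups, and more in the controls. Over all 18193 genes, 620 rose and 785 fell under the Jmjd2a label, and 865 rose and 1244 fell under the Jmjd2c label. Of the mitotic genes 35 of 37 rose under the Jmjd2a label and 35 of 37 under the Jmjd2c label. For 23 of 37 the control change was larger, and the median difference over the list was 0.51. For Ccnb2 the control change exceeded the label change by 1.11 (adjusted p = 1.7e-05), and for Mki67 by 0.7. Ribosome biogenesis differed in direction, since 7 and 10 of 35 genes rose and 0 fell under the Jmjd2a and Jmjd2c labels, and 34 of 35 changes were lower in the controls. Replication genes rose in 21 of 38 cases under each label, and 31 of 38 changes were lower in the controls, where 22 genes fell. Myc fell more in the controls by 0.85 and Ccnd2 by 1.19.

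For several secretory products the control change stood above the label changes. Jchain stood above them by 1.85, Mzb1 by 1.45, Xbp1 by 0.77 and Ighm by 0.75, while Sdc1 stood at -1.55. Under the labels Xbp1 went from 11.87 and 11.86 at day 1 to 11.87 and 11.91 at day 3 (means of 2 arrays). Jchain went from label means of 12.15 and 12.25 to 11.68 and 11.69, and Mzb1 from 12.12 and 12.23 to 11.86 and 11.89. Their day 1 label means lay above the day 1 control means of 11.18 and 11.54. The gaps of these 2 genes thus come in part from the day 1 arrays with depletion labels. Irf4, which did not pass in the controls, went from 9.65 to 9.29 and from 9.65 to 9.18 in label means, so that its control change was higher by 0.64. Prdm1 did not differ past the test (-0.08, adjusted p = 0.83).

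Fcer2a and Cr2, both B cell surface genes, differed through the day 1 arrays with depletion labels. Fcer2a had label means of 10.09 and 10.42 at day 1 and 5.28 and 5.33 at day 3, whereas all 4 control arrays lay between 5.02 and 5.53. The control change was higher by 5.15 (adjusted p = 2.9e-07). Cr2 showed the same arrangement, with label means of 11.27 and 11.39, then 7.57 and 7.57, and control values of 7.35 and 7.34, then 8.26 and 8.2. Mature B cell identity genes fell in 17 and 22 of 30 cases under the Jmjd2a and Jmjd2c labels, against 785 and 1244 of all 18193 genes. For 19 of the 30 the control change was higher. Pcp4, Rgs13 and Maf, which fell in the controls, had label means of 8.63 and 8.55, 8.37 and 8.27, and 8.55 and 8.26 at day 3, nearer to the day 1 controls than to the day 3 controls. They were chosen for the size of their fall in the controls, so this nearness was close to fixed beforehand.

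**Figure D5:**
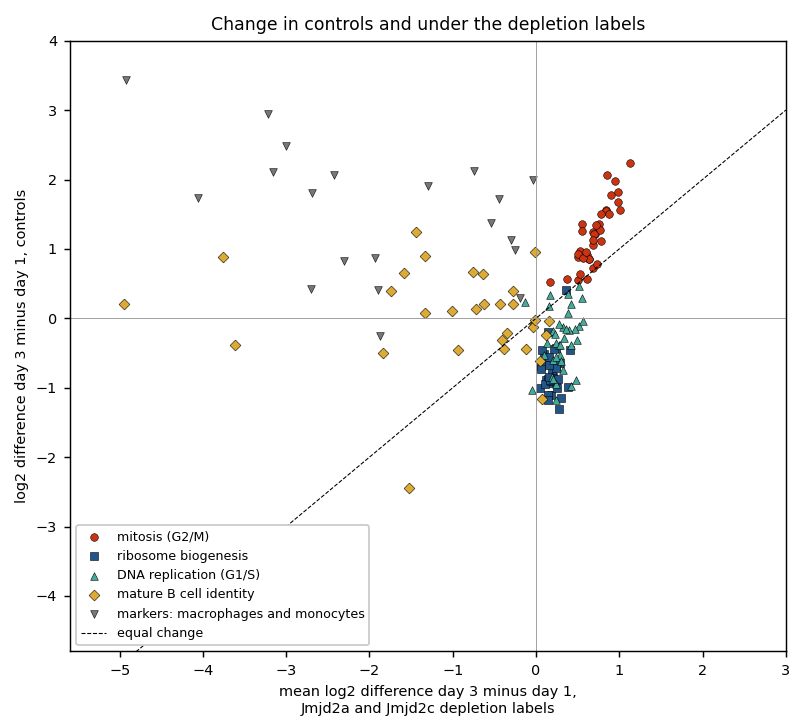
Log2 difference day 3 minus day 1 in the controls (vertical) against the mean difference under both depletion labels (horizontal) for the members of 5 lists; the dashed line marks equal change. Mitosis genes are positive on both axes and mostly above the line, 34 of 35 ribosome biogenesis genes lie below it, and several B cell and macrophage genes are strongly negative under the labels only.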

How the data were processed

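Total RNA was hybridised as biotin-labelled cRNA to 12 Affymetrix arrays, per the labels' protocols. The authors deposited 1 table of log2 values with 45101 probe sets. The sources used here name neither a summary nor a normalization method. Values were used as deposited, without 64 control probe sets. Probe sets were named from the platform annotation: 34945 have 1 gene symbol, 932 several and 9160 none, and only those with 1 were named. A gene was represented by its brightest such probe set over the 12 arrays.

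One limma model (3.58.1, R 4.3.3) of 6 group means over all 12 arrays, with an intensity trend in the prior variance, gave the control contrast and its difference from the mean label change. It had 6 residual degrees of freedom. P-values were Benjamini-Hochberg adjusted over 45037 probe sets, with calls under 0.05. On simulated data the model recovered 53% of 1.5-fold and 95% of 2-fold changes with 10 false calls. The simulation gave all arrays the shared spread and changed 100 probe sets of each size. In the data the day 3 controls had a replicate SD of 0.259, against 0.115 to 0.157 in the other groups, and far more probe sets were called. These figures may therefore not hold for the control contrast. The number of arrays limits the precision. Gene lists were described by counts and medians, with no set test.

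The members and lists were chosen with earlier results of these data known. Named are the 10 largest rises and falls that pass without each day 3 array, do not overlap and have a higher group brighter than the median probe set, a list of identity, cycle and chromatin genes, and up to 4 members of smallest p per direction of each list with 3 or more calls. S100a8, S100a9, Csf1r, Cd14, Cd163, Ncr1, Eomes, Cd3e, Cd8a, Cd74, Mmp8, Ms4a2, Lum, Car2 and Epb42 were named after their values were seen. Promoters are the 250 bases before RefSeq starts, searched for 9 motifs, and the text gives only some of the shares. The 2 holders of smallest p were printed. For the cholesterol and homing receptor lists under 80% of the genes had a promoter, so their sterol and Kruppel (CCACACCC) element shares are void. Alternatives were quantile normalization, centring, leaving out dim probe sets, other prior variances, array weights, other thresholds, a replicate block, the 4 control arrays alone and leaving out each control array.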

Additional observations from a re-analysis of the deposited data

Results flagged for a closer look

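The change between days in the controls differed from the mean change under both depletion labels (limma interaction contrast, adjusted p under 0.05) in 3659 probe sets that were higher and 6095 that were lower. In what follows each value is the control change minus the label change in log2 units. It was not tested whether other cells account for any of these values, and the macrophage marker mean was 7.35 to 8.4 on the day 1 arrays with depletion labels against 5.27 and 5.28 on the day 1 controls.

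The 20 genes with the largest rises and falls in the controls all differed. They were chosen by the control change, which enters this difference, so that outcome was close to fixed beforehand. Pcp4 differed by -4.56, Rgs13 by -3.57, Pigr by -3.1, Maf by -2.8, Xrcc5 by -2.78, Serpinb1a by -2.71, 2010204K13Rik by -2.65, Spred2 by -2.59, Smad1 by -2.46 and Fcmr by -0.93. Among the rises Gzma differed by 5.3, Gpr34 by 4.98, Lpl by 4.25, S100a4 by 2.94, Fabp4 by 2.62, Gzmb by 2.29, Anxa1 by 2.16, Cxcl10 by 2.09, 2900026A02Rik by 2.08 and Fnbp1l by 1.6.

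Of the identity, cycle and chromatin genes, Fcer2a differed by 5.15, Cr2 by 4.64, Ms4a1 by 2.14, Jchain by 1.85, Mzb1 by 1.45, Cdkn1b by 1.45, Cdkn3 by 1.1, Xbp1 by 0.77, Ighm by 0.75, Mki67 by 0.7 and Irf4 by 0.64. Sdc1 differed by -1.55, Ccnd2 by -1.19, Myc by -0.85, Bach2 by -0.66 and Wdr5 by -0.61.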

How the results depend on the processing

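Against 3809 probe sets higher and 6932 lower at day 3, the counts were 1708 and 3145 with only the 4 control arrays, where fewer arrays estimate the spread, 2304 and 3323 with the brightest probe set of each gene, where fewer are tested, and 1738 and 3438 with at least 1.5-fold added. Array weights gave 2076 higher, with a weight of 0.278 on each day 3 control array and 0.946 to 1.57 on the rest. The cause of the lower count was not tested. Leaving out each control array gave 1968 to 7917 higher and 4098 to 10127 lower. For the control change against the labels (3659 and 6095) the brightest probe sets gave 2220 and 3152, a 1.5-fold minimum gave 3830 lower, and leaving out each array gave 2529 to 6225 higher and 4250 to 9146 lower. The numbers of calls under quantile normalization, centring, no dim probe sets, both other prior variances and the looser threshold stayed within 1.5 times for both comparisons.

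With the replicate number as a block the counts were 3824 and 7059, and 3699 and 6165 for the difference from the labels; the numbers did not pair the samples, since deviations of the day 1 and day 3 controls correlated at 0.071 and, of all pairs of groups, only the Jmjd2a and Jmjd2c day 1 arrays exceeded 0.1 (0.392). Under the block, of 219 named genes 1 lost its call. With only the control arrays 34 of the 219 lost it, without day 1 replicates 1 and 2 31 each, and without day 3 replicates 1 and 2 12 and 11. In list counts, only the control arrays gave 6 falls for the germinal centre, 7 for IL-21, 12 for endoplasmic reticulum folding, 9 for glycosylation, 4 for oxidative phosphorylation and 4 for histone modifiers, 2 for B cell receptor signalling, and 3 T cell marker rises.

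Signs that turned all belong to values not past the test with all arrays. Under quantile normalization Pax5 was 0.03 and Kdm4c 0.13 between days, and the difference from the labels was 0.01 for Prdm1, 0.04 for Zbp1, 0.01 for Rrm1, 0.01 for Tk1 and -0.02 for Ccr9. Under centring it was -0.01 for Cox6c. Leaving out each control array gave between days -0.13 to 0.34 for Prdm1, -0.01 to 0.41 for Fcer2a and -0.25 to 0.16 for Kdm4c. For the difference from the labels it gave -0.32 to 0.15 for Prdm1, -0.07 to 0.33 for Kdm4c, -0.11 to 0.04 for Zbp1, -0.04 to 0.29 for Ier3, -0.02 to 0.17 for Bcl2, -0.08 to 0.0 for Rrm1 and -0.18 to 0.31 for Ccr9.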
